A study of Mus musculus with 8 samples.

Results

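Long noncoding RNAs (lncRNAs) were examined in mouse regulatory T cells (Tregs) cultured in the absence or presence of oxPAPC, an oxidized phospholipid mixture of a kind found in atherosclerotic tissue. The genes described are the 306 well expressed lncRNAs among the 2405 lncRNA rows and 19330 genes of the deposited count table. Genes were chosen by their biotype in the table, by a place outside chromosomes X and Y, and by a mean level of 5 CPM or more over all 8 libraries, where 1 CPM is 1 count in 1000000 counts of the library. The structural gene Gm26917 was left out. The choice used the mean level over both groups together and not the difference between them, so levels below are a description and the difference was tested.

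Naive CD4+ T cells from the spleen of B6 mice were polarized toward Tregs in culture for 3 days, in 4 libraries without oxPAPC (control) and 4 with it. All 8 libraries share the genotype, the tissue and the polarizing culture. RNA was selected for poly(A) tails. No label ties a replicate to its own mouse or culture, and p-values therefore measure only the spread between these libraries, which may be technical.

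LncRNAs are transcripts that are not translated into a long protein. Some build structures in the nucleus, as Neat1 does for the RNA and protein bodies called paraspeckles. Others are mainly carriers: small nucleolar RNAs (snoRNAs), which guide chemical modification of ribosomal RNA, and microRNAs are cut from their introns or exons. Several carrier transcripts are rapidly degraded once spliced, because a ribosome reaches an early stop codon. Many further lncRNAs overlap a protein-coding gene or start beside its promoter, and for most of these no function is established.

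Library totals ran from 14017583 to 21619731 counts. The 306 lncRNAs took up 0.826 ± 0.136% of counts in control libraries and 0.870 ± 0.140% with oxPAPC (SD, n = 4 each). Gm26917 held between 8.59 and 29.1% of a library's counts, with the highest share in control replicate 2. Treg and T cell genes were present in every library: Foxp3 ranged from 88.5 to 211 CPM (here and below after TMM scaling, which adjusts library totals), and 0 of 8 Treg identity genes passed the edgeR test (1 at an unadjusted p under 0.05, and 1 with DESeq2). Of markers of other cells, 5 of 9 tested B lineage genes, 2 of 5 myeloid genes and 4 of 7 CD8, NK or γδ T cell genes were higher with oxPAPC. The share of higher calls over all tested genes was 6.75%. The summed B lineage level ranged from 60.5 to 81.6 CPM in control against 66.1 to 102 CPM in oxPAPC libraries. Summed myeloid markers ranged from 4.15 to 5.44 against 10.7 to 12.3 CPM, and those of CD8, NK and γδ T cells from 69.7 to 98.0 against 97.9 to 137 CPM. In bulk RNA, fewer cells of a type and less RNA per cell cannot be told apart.

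One library stood apart for these genes. oxPAPC replicate 3 had the lowest value of the 4 oxPAPC libraries for 221 of the 306 lncRNAs, or 72.2%. Among 9228 autosomal protein-coding genes at 5 CPM or more, that library was lowest for 19.1% and highest for 51.3%. The summed level of the 306 lncRNAs was 9060, 9826, 6228 and 8194 CPM in oxPAPC replicates 1 to 4 and 9732, 8683, 8829 and 7332 CPM in control replicates 1 to 4. Control replicate 4 was in turn the lowest control library for 48.0% of the lncRNAs and for 13.4% of the protein-coding genes. Counts of calls without each of these libraries are given below.

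**Figure D1:**
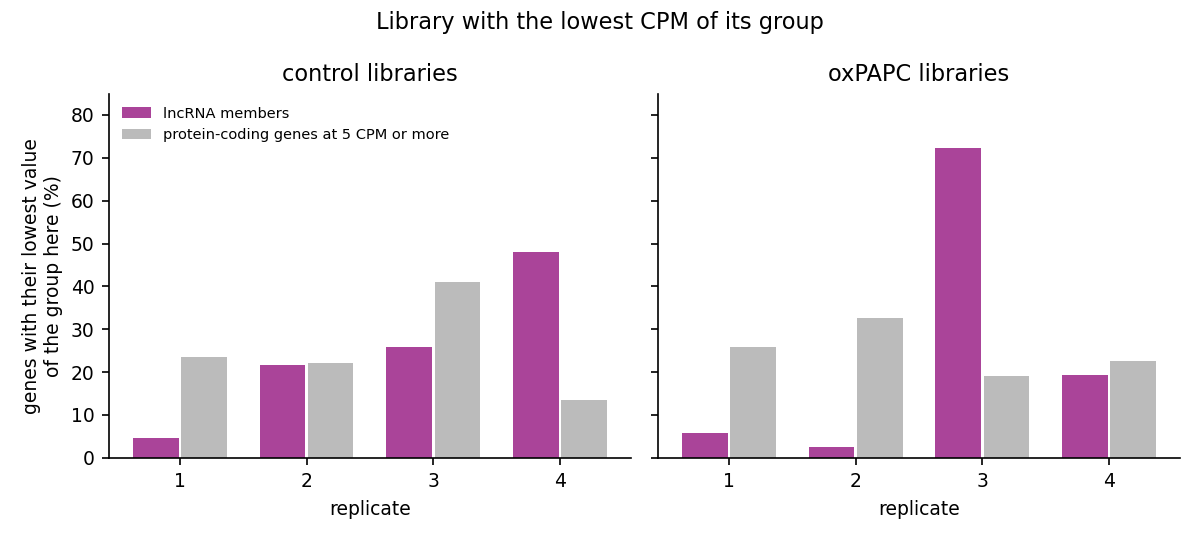
Share of genes (%, vertical axis) that have their lowest CPM of a group in each replicate (horizontal axis), for the 306 lncRNAs and for protein-coding genes at 5 CPM or more. oxPAPC replicate 3 is lowest for 72.2% of the lncRNAs and 19.1% of the protein-coding genes, and control replicate 4 for 48.0% and 13.4%.

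With oxPAPC 22 of the lncRNAs were higher and 11 were lower, by edgeR's quasi-likelihood test at an adjusted p under 0.05 over all 16434 tested genes. The 33 calls are 10.8% of the 306 lncRNAs, against 13.3% of all tested genes and 16.1% of the protein-coding genes at 5 CPM or more. Higher calls made up 7.19% of the lncRNAs, against 6.75% of all tested genes and 8.54% of those protein-coding genes. Lower calls made up 3.59%, against 6.52% and 7.53%. The median log2 fold change was 0.02 over the lncRNAs and -0.01 over all tested genes. Of 1423 tested lncRNAs under 5 CPM, 5.41% were called, 23 higher (1.62%) and 54 lower (3.79%).

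The number of calls changed when single libraries were left out. Higher lncRNA calls fell to 11 without control replicate 2, to 12 without control replicate 4 and to 12 without oxPAPC replicate 1. They fell to 13 without oxPAPC replicate 2 and to 14 without oxPAPC replicate 4. Over all tested genes, higher calls went from 1110 to 710, 908, 811, 1057 and 779 in the same order. Lower lncRNA calls numbered 5 without control replicate 1, 5 without control replicate 2, 6 without oxPAPC replicate 1 and 3 without oxPAPC replicate 4. Over all tested genes, lower calls went from 1072 to 817, 680, 715 and 694 in that order. How much of this came from fitting fewer libraries was not tested. Without oxPAPC replicate 3, the library with the low lncRNA values, 32 lncRNAs were higher and 9 were lower, and 31 of the 33 calls remained. When GC content and length entered the fit as an offset, 30 were higher and 26 lower. Only 10 of the 33 calls passed in all 18 alternatives that refitted the test: higher Morrbid, Gm44851, Mir17hg, Snhg17, Snhg4, Gm47015, Gm20186, AC113595.1 and 4833445I07Rik, and lower Neat1.

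**Figure D2:**
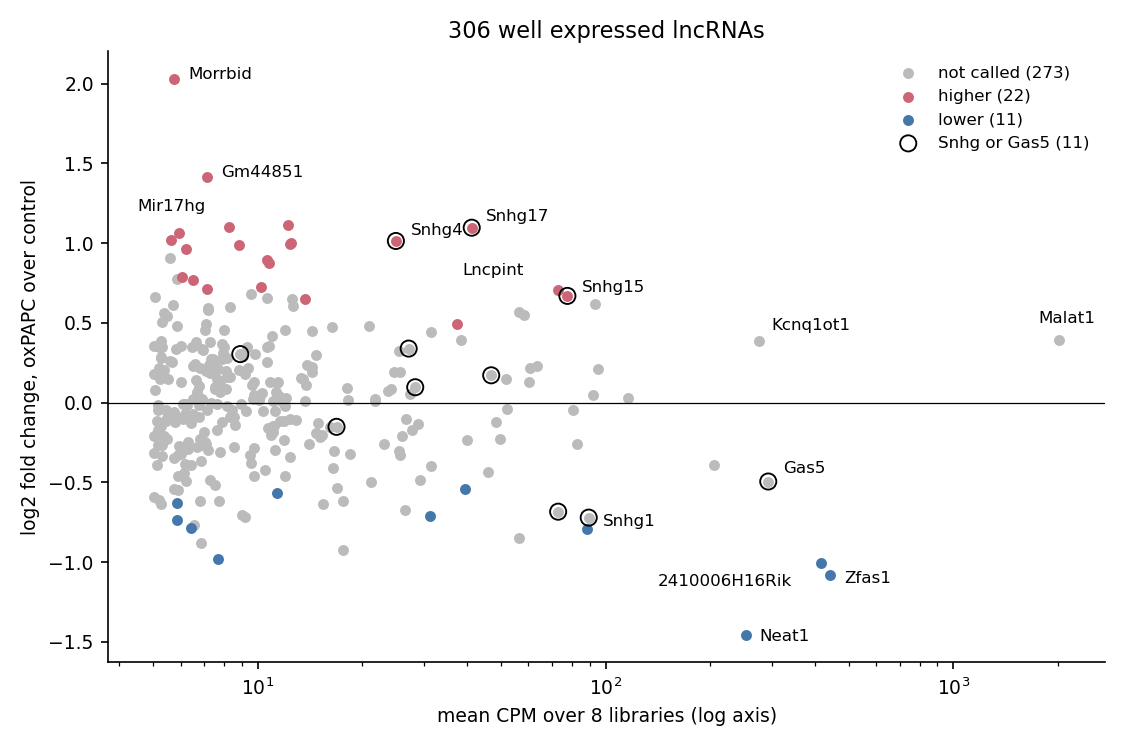
Log2 fold change of oxPAPC over control (vertical axis) against mean CPM over 8 libraries (horizontal log axis) for the 306 lncRNAs, coloured by edgeR call and ringed where the name is Snhg or Gas5. The 22 higher calls lie below 100 CPM, while Neat1, Zfas1 and 2410006H16Rik are lower calls above it.

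Neat1, the gene of the architectural RNA of paraspeckles, had the strongest fall of the 306. It is transcribed from the minus strand of chr19:5824708-5845478 (GRCm38) as an exon of 20771 bases that overlaps no protein-coding gene. Its level was 371, 404, 430 and 309 CPM in control replicates 1 to 4 and 148, 162, 111 and 132 CPM in oxPAPC replicates 1 to 4. Every oxPAPC library was below every control library. The means were 379 ± 52.0 and 138 ± 22.1 CPM (SD, n = 4 each), 2.74-fold lower with oxPAPC, a log2 fold change of -1.46 ± 0.17 (SE, adjusted p = 0.000147 by edgeR). Over the alternatives the log2 fold change stayed between -1.54 and -1.27. Counts are per gene, so transcripts of Neat1 cannot be told apart, and those without a poly(A) tail may be missed. Paraspeckles were not measured.

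Malat1, the abundant nuclear RNA encoded beside Neat1 on chromosome 19, did not pass the test. It had 1852, 1650, 1931 and 1467 CPM in control against 2325, 2701, 1670 and 2378 CPM in oxPAPC libraries. The groups overlapped through oxPAPC replicate 3, and the log2 fold change was 0.40 ± 0.22 (SE, adjusted p = 0.262 by edgeR). Malat1 alone held 23.8% of the summed CPM of the 306 lncRNAs.

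Lncpint, a p53-responsive nuclear lncRNA, was higher. Its values were 71.0, 41.7, 62.3 and 44.1 CPM in control against 97.0, 115, 61.6 and 84.4 CPM in oxPAPC libraries. Only oxPAPC replicate 3 lay within the control range, and the log2 fold change was 0.71 ± 0.21 (SE, adjusted p = 0.0397 by edgeR). The call was lost without control replicates 2 (adjusted p = 0.120) or 4 (0.104) and without oxPAPC replicates 1 (0.0943), 2 (0.113) or 4 (0.0640), and with a filter at 5 CPM (0.0630). Kcnq1ot1, the imprinted antisense RNA of the Kcnq1 locus, did not pass, with a log2 fold change of 0.39 ± 0.28 and 155 to 319 CPM in control against 178 to 415 CPM in oxPAPC libraries.

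Proteins of the paraspeckle were read from a list of 22 genes, of which 3 were higher and 1 lower, with a median log2 fold change of 0.19. Among the higher ones were Sfpq at 0.65 and Tardbp at 0.51 (log2 fold changes), both RNA-binding proteins. Zc3h6, a zinc finger protein, was the lower one at -1.55. The other 18 did not pass. Among all tested genes 6.75% were higher and 6.52% lower, and among protein-coding genes at 5 CPM or more 8.54% and 7.53%.

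Carriers of snoRNAs split in both directions. The 11 genes named Snhg or Gas5 included 3 higher (Snhg17, Snhg4 and Snhg15), 0 lower and 8 that did not pass, with a median log2 fold change of 0.17. By edgeR 3 of the 11 were lower at an unadjusted p under 0.05, and DESeq2 called 1 of them lower. The other 295 lncRNAs included 19 higher and 11 lower, with a median of 0.02. The name does not cover all carriers: GENCODE places a snoRNA inside 20 of the 306 on the same strand, 10 of which have other names. Over the 21 carriers by either criterion, 4 were higher, 3 were lower (Zfas1, 2410006H16Rik and 1110038B12Rik) and 14 did not pass.

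Many snoRNA carriers and ribosomal protein genes start in a run of pyrimidines, the terminal oligopyrimidine tract that ties translation to growth signals. RefSeq start sites (GRCm38.p6) are shown for 8 carriers: the 3 that fell, Snhg1 and Gas5, which did not pass the test, and 3 that rose. Each line holds 25 bases before the start and 25 from it on the transcribed strand, and capitals mark the longest unbroken run of C and T within 15 bases of the start.
Zfas1 (chr2:167062909-167062958, plus strand): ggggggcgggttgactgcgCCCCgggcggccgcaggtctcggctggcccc
2410006H16Rik (chr11:62602852-62602901, plus strand): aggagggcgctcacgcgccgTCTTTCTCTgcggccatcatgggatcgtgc
1110038B12Rik (chr17:34952444-34952493, minus strand): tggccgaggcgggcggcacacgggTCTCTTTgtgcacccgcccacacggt
Snhg1 (chr19:8723462-8723511, plus strand): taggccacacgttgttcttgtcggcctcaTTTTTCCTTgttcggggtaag
Gas5 (chr1:161035141-161035190, plus strand): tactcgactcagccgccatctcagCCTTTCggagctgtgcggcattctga
Snhg17 (chr2:158361485-158361534, minus strand): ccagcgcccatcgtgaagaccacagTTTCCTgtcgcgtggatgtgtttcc
Snhg15 (chr11:6528736-6528785, minus strand): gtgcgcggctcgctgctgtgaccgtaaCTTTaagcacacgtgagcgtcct
2700038G22Rik (chr5:23850572-23850621, plus strand): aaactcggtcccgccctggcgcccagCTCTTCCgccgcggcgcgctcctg

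A run of 7 or more C or T, read on the transcribed strand only, stood within 15 bases of a RefSeq start in 9 of 16 carriers with a listed start (56.2%). The share was 20.8% of 130 other lncRNAs of the 306, 55.7% of 61 ribosomal protein genes and 21.3% of 27025 genes in the table of starts. Runs of that length stood at carriers of both directions. Of the carriers that fell, 2410006H16Rik had a run of 9 and 1110038B12Rik one of 7, while the longest run at Zfas1 was 4. Of those that rose, 2700038G22Rik had a run of 7, while Snhg17 had 6 at the start shown and Snhg15 had 4.

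Zfas1 and 2410006H16Rik had the highest CPM of the carriers, and both fell. Zfas1, which hosts Snord12 relatives and overlaps Znfx1 on the other strand, had 793, 735, 424 and 533 CPM in control against 366, 372, 162 and 274 CPM in oxPAPC libraries. 2410006H16Rik, host of Snord49a, Snord49b and Snord65, had 743, 691, 438 and 420 CPM in control against 360, 370, 177 and 236 CPM in oxPAPC libraries. In both genes control replicates 1 and 2 were high, oxPAPC replicate 3 was lowest, and the groups did not overlap.

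The log2 fold change was -1.08 ± 0.27 for Zfas1 (SE; edgeR adjusted p = 0.0165) and -1.004 ± 0.26 for 2410006H16Rik (SE; edgeR adjusted p = 0.0218). 1110038B12Rik, host of Snord52, was likewise highest in control replicates 1 and 2 and lowest in oxPAPC replicate 3, with 148, 137, 85.5 and 90.2 CPM in control against 77.3, 76.2, 51.2 and 61.3 CPM in oxPAPC libraries. Its log2 fold change was -0.79 ± 0.20 (SE, adjusted p = 0.0191 by edgeR). All of these calls were lost when a high control library was left out: without control replicate 1 the adjusted p was 0.0539 for Zfas1, 0.0702 for 2410006H16Rik and 0.0678 for 1110038B12Rik. Without control replicate 2 it was 0.0506, 0.0654 and 0.0625 in the same order. Without oxPAPC replicate 4 it was 0.0651 for 2410006H16Rik and 0.0553 for 1110038B12Rik.

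Other carriers did not pass the test, with log2 fold changes of either sign. Snhg1, the host of 8 annotated snoRNAs, had 134, 86.3, 142 and 81.9 CPM in control against 72.7, 74.2, 41.9 and 81.3 CPM in oxPAPC libraries. The groups were apart by less than 1 CPM, between control replicate 4 and oxPAPC replicate 4, and the log2 fold change was -0.72 ± 0.23 (SE, adjusted p = 0.0511 by edgeR). Gas5, a carrier that is also studied for its binding to the glucocorticoid receptor, had 300 to 392 CPM in control against 173 to 294 CPM in oxPAPC libraries, with a log2 fold change of -0.50 ± 0.19 (SE, adjusted p = 0.0974 by edgeR). Epb41l4aos was at -0.85 ± 0.27 (edgeR adjusted p = 0.0516, and 0.0112 without control replicate 3, 0.0448 without oxPAPC replicate 1 and 0.0475 without oxPAPC replicate 2) and Snhg6 at -0.68 ± 0.28 (0.124). DESeq2 called Epb41l4aos (adjusted p = 0.0288) and Snhg1 (0.0299) lower. Snhg1 was also lower by edgeR without control replicates 2 (0.0483) or 4 (0.0331), and the GC and length offset put Epb41l4aos (0.0150), Snhg1 (0.00489), Gas5 (0.0210) and Snhg6 (0.0171) past the threshold. Quality weights put Epb41l4aos past it too (0.0193), as did no filter (0.0488).

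AA465934, host of Snord7 and named after its values were seen, had 11.9, 7.02, 9.32 and 10.03 CPM in control against 12.2, 17.9, 11.3 and 18.8 CPM in oxPAPC libraries. Its log2 fold change was 0.65 ± 0.21 (SE, adjusted p = 0.0543 by edgeR), and oxPAPC replicate 3 lay within the control range. It was called higher by DESeq2 (0.0255), with RLE scaling (0.0472), the GC and length offset (0.0310) and quality weights (0.0351), and without control replicate 1 (0.0496) or oxPAPC replicate 3 (0.0263).

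The carriers that rose started from lower levels. Snhg17 had 29.3, 20.3, 24.8 and 28.2 CPM in control against 52.4, 59.2, 47.6 and 60.5 CPM in oxPAPC libraries, 2.14-fold higher, with a log2 fold change of 1.10 ± 0.15 (SE, adjusted p = 0.000385 by edgeR). Snhg4 had 22.3, 13.8, 15.4 and 13.5 CPM in control against 34.1, 34.4, 24.6 and 38.1 CPM in oxPAPC libraries, with a log2 fold change of 1.01 ± 0.19 (SE, adjusted p = 0.00289 by edgeR). The groups did not overlap in either gene. Snhg4 overlaps the predicted protein-coding gene Gm28285 on the same strand, so reads of the pair cannot be told apart.

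Snhg15 was higher by 0.67 ± 0.21 on the log2 scale (SE, adjusted p = 0.0496 by edgeR), with 46.4 to 79.3 CPM in control against 62.6 to 116 CPM in oxPAPC libraries. This call was lost without any 1 of control replicates 2 (0.101), 3 (0.103) and 4 (0.118) and of oxPAPC replicates 1 (0.141), 2 (0.126) and 4 (0.0741), with limma-voom (0.0542) and with a filter at 5 CPM (0.0654). 2700038G22Rik, host of Snord93, was higher by 0.77 ± 0.23 (SE, adjusted p = 0.0399 by edgeR), a call lost without control replicates 1 (0.0729), 2 (0.115) or 4 (0.0811) and oxPAPC replicates 1 (0.100), 2 (0.0579) or 4 (0.125), with limma-voom (0.0546) and with that filter (0.0517). Snhg5, Snhg20, Snhg8, Snhg12 and Snhg16 did not pass, with log2 fold changes of 0.34, 0.30, 0.17, 0.10 and -0.15, although Snhg5 passed without oxPAPC replicate 3 (0.0393).

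oxPAPC replicate 3 gave the lowest oxPAPC value in 19 of the 21 carriers. AI506816, named after its values were seen, went the other way: it had 85.1, 68.4, 166 and 122 CPM in oxPAPC libraries against 62.8, 65.3, 70.2 and 89.2 CPM in control, and did not pass (edgeR adjusted p = 0.0998). Control replicate 1 gave the highest control value in 16 of the 21.

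**Figure D3:**
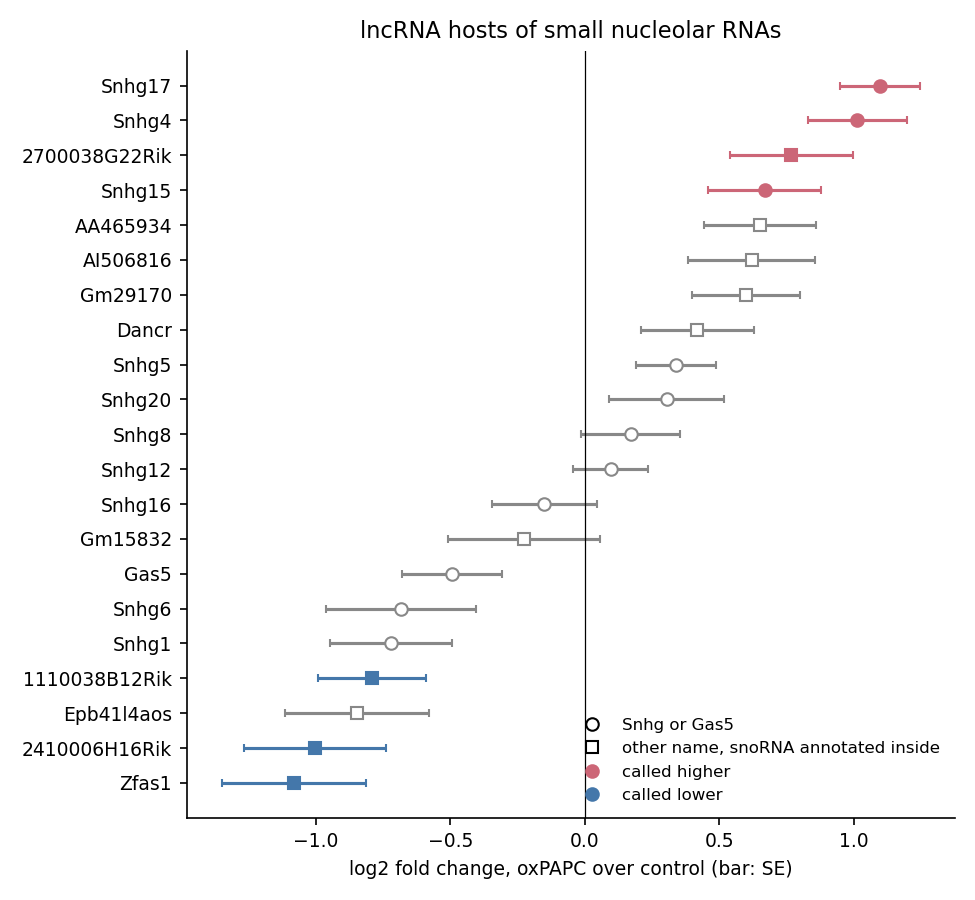
Log2 fold change of oxPAPC over control with its SE (horizontal axis) for the 21 snoRNA carriers (vertical axis), with circles for Snhg or Gas5 names, squares for other names and filled symbols for edgeR calls. Snhg17, Snhg4, 2700038G22Rik and Snhg15 are filled on the right, and 1110038B12Rik, 2410006H16Rik and Zfas1 on the left.

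Proteins that assemble snoRNAs into working particles were read from a list of 18 genes. Of these 11 were higher and 0 lower by edgeR and by DESeq2, also 0 lower at an unadjusted p under 0.05. All 18 had positive log2 fold changes, with a median of 0.66. Among all tested genes 6.75% were higher by edgeR. Nop56, a core protein of box C/D particles, was higher by 1.48 ± 0.16 (log2, SE, adjusted p = 6.24e-05 by edgeR), and its partner Nop58 by 0.92. Dkc1, the pseudouridine synthase of box H/ACA particles, was higher by 1.01 and Nhp2 by 0.76. Of the 21 carriers, by contrast, 4 were higher and 3 lower. Zfas1 and 2410006H16Rik, the carriers with the highest CPM, were among the lower ones. Their calls were lost without control replicate 1 or 2.

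Cytosolic ribosomal protein genes, many of which start in a run of pyrimidines, had a median log2 fold change of -0.21. Of 77 such genes 71 had negative values, 2 were higher and 0 lower by edgeR (1 lower at an unadjusted p under 0.05, and 0 with DESeq2). A list of 19 translation genes, chosen for the same kind of start, had 0 calls by edgeR and 3 lower with DESeq2. At an unadjusted p under 0.05 edgeR put 4 of them lower. Their median was -0.30, with 18 negative values, and runs at their starts were not counted. Pabpc1, the poly(A)-binding protein and the member of that list with the smallest p, was at -0.69 ± 0.25 (SE, adjusted p = 0.0829 by edgeR). Of 22 genes of nonsense-mediated decay, the pathway that degrades spliced carrier transcripts, 2 were higher (Magoh at 0.84 and Smg5 at 0.56) and 0 lower by edgeR, with 3 lower at an unadjusted p under 0.05. DESeq2 called 4 higher and 0 lower. The edgeR shares over all tested genes were 6.75% higher and 6.52% lower, and over protein-coding genes at 5 CPM or more 8.54% and 7.53%.

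By edgeR without an offset, carriers of microRNAs were higher or did not pass, and 6.75% of all tested genes were higher. GENCODE places a microRNA inside 12 of the 306 lncRNAs, of which 4 were higher (Mir17hg, Mir155hg, 4833445I07Rik and Snhg4) and 0 lower by edgeR and by DESeq2, with a median log2 fold change of 0.26. At an unadjusted p under 0.05, edgeR put 1 of the 12 lower. The mature microRNAs of the first 3 are shown because their seeds (bases 2 to 8, in capitals) set which transcripts they pair with. Sequences are from RefSeq (GRCm38.p6), and the microRNAs themselves were not measured.
miR-155-5p, in Mir155hg: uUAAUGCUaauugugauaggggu
miR-17-5p, in Mir17hg: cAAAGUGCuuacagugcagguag
miR-20a-5p, in Mir17hg: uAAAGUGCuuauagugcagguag
miR-18a-5p, in Mir17hg: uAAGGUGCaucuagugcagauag
miR-19a-3p, in Mir17hg: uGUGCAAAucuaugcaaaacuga
miR-19b-3p, in Mir17hg: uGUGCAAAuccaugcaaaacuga
miR-92a-3p, in Mir17hg: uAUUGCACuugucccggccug
miR-191-5p, in 4833445I07Rik: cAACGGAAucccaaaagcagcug
miR-425-5p, in 4833445I07Rik: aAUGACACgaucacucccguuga

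Within the Mir17hg cluster, miR-17-5p and miR-20a-5p share one seed and miR-19a-3p and miR-19b-3p another. Mir17hg (chr14:115042879-115046727, plus strand, overlapping no protein-coding gene) is the transcript of the miR-17-92 cluster, a promoter of T cell proliferation and a known target of Myc. It had 5.12, 4.30, 6.22 and 4.97 CPM in control against 14.5, 10.8, 8.52 and 10.7 CPM in oxPAPC libraries. Every oxPAPC library was above every control library, by a log2 fold change of 1.10 ± 0.20 (SE, adjusted p = 0.00302 by edgeR). Myc, looked up after these values were seen, was 105 ± 23.2 CPM in control against 183 ± 38.8 CPM in oxPAPC libraries and was higher (SD, n = 4 each; edgeR adjusted p = 0.0128).

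Mir155hg (chr16:84703167-84715245, plus strand), the carrier of miR-155 and a gene induced on lymphocyte activation, had 4.32, 2.49, 5.58 and 2.53 CPM in control against 8.96, 8.0, 5.30 and 9.23 CPM in oxPAPC libraries. oxPAPC replicate 3 fell within the control range, and the log2 fold change was 1.06 ± 0.28 (SE, adjusted p = 0.0231 by edgeR). The call was lost without control replicates 2 (0.0680) or 4 (0.0625) or oxPAPC replicates 1 (0.0615) or 4 (0.0641). It was also lost when the replicate number entered the fit as a block (0.0707). Mir155hg entered the set through the oxPAPC libraries, since its control mean was under 5 CPM. B cells also express this gene. The summed B lineage markers given above overlapped between the groups, and the part of such cells in this result was not tested.

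4833445I07Rik, which contains Mir191 and Mir425 on chr9:108567533-108569174, was higher by 0.89 ± 0.20 (log2, SE, adjusted p = 0.00906 by edgeR). Its levels were 8.45, 8.30, 5.39 and 7.50 CPM in control against 16.8, 15.3, 10.8 and 12.2 CPM in oxPAPC libraries, with no overlap. Mir142hg, carrier of the blood-cell microRNA miR-142, did not pass, with 48.9 to 65.4 CPM in control against 48.6 to 83.6 CPM in oxPAPC libraries (log2 fold change 0.21). Dleu2, carrier of miR-15a and miR-16, did not pass either, at -0.33 on that scale. Gm4258, carrier of miR-181a and miR-181b and named after its values were seen, did not pass. It was lower with the GC and length offset (edgeR adjusted p = 0.0263).

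Morrbid had the largest rise of the 306. The gene (chr2:128178319-128502765, minus strand) is known in short-lived myeloid cells as a repressor of the death gene Bcl2l11 on the same chromosome, and it overlaps no protein-coding gene. It had 2.99, 1.66, 2.42 and 1.70 CPM in control against 11.1, 11.3, 5.69 and 8.01 CPM in oxPAPC libraries. The groups were well apart, with means of 2.19 ± 0.637 and 9.03 ± 2.69 CPM (SD, n = 4 each), a ratio of 4.12 and a log2 fold change of 2.03 ± 0.28 (SE, adjusted p = 0.000398 by edgeR). It entered the set through the oxPAPC libraries, since its control mean was under 5 CPM.

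Bcl2l11, looked up after these values were seen, was lower with oxPAPC. Its level was 20.9, 29.4, 25.6 and 20.4 CPM in control against 8.14, 9.06, 8.60 and 7.46 CPM in oxPAPC libraries, a log2 fold change of -1.53 ± 0.16 (SE, adjusted p = 5.54e-05 by edgeR). Among myeloid markers Mpeg1 was 0.0665 to 0.377 CPM in control against 3.44 to 4.72 CPM in oxPAPC libraries and Flt3 was also higher. Csf1r, Lyz2 and Cd68 did not pass, Itgax, Adgre1 and Fcgr3 were too low to test, and 4 of the 12 listed markers were not in the table. The part of myeloid cells in the rise of Morrbid was not tested.

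**Figure D4:**
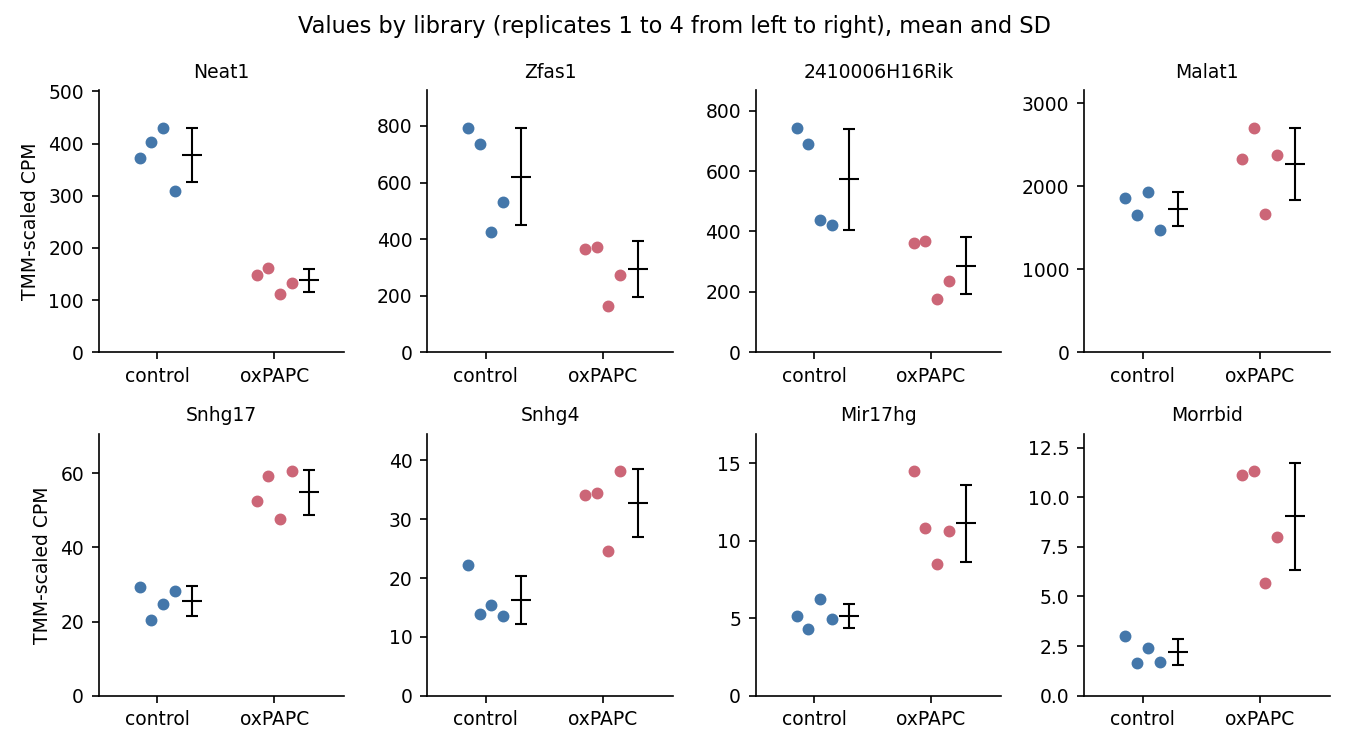
TMM-scaled CPM (vertical axes, each from 0) of 8 lncRNAs in the 4 control and 4 oxPAPC libraries, with replicates 1 to 4 from left to right and the mean and SD beside them. Neat1 lies at 309 to 430 CPM in control against 111 to 162 CPM in oxPAPC libraries, Morrbid at 1.66 to 2.99 and 5.69 to 11.3 CPM, and Malat1 overlaps.

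Of the 8 members of a list of lncRNAs studied in immune cells, Morrbid was higher and Zfas1 lower and 6 did not pass. Pvt1, which lies downstream of Myc, had 39.5 to 61.3 CPM in control against 30.1 to 57.9 CPM in oxPAPC libraries, a log2 fold change of -0.12 that changed sign without oxPAPC replicate 3 (0.042). Tug1 was at -0.23, Oip5os1 at 0.23 and Mirt1 at -0.12 on the log2 scale. Mirt1 turned to 0.01 when library totals alone were used for scaling. AW112010, an interferon-responsive transcript of activated T cells named after its values were seen, was 44.6 ± 15.5 CPM in control against 66.2 ± 14.3 CPM in oxPAPC libraries and did not pass (SD, n = 4 each; edgeR adjusted p = 0.123). It passed with the GC and length offset (0.00502) and quality weights (0.0172), and without control replicate 3 (0.0301) or oxPAPC replicate 3 (0.0477).

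Antisense and overlapping lncRNAs made up most of the set: 207 of the 306 overlap a protein-coding gene, 163 of them on the other strand. No source used here states if reads were assigned by strand, and reads of an overlapping pair cannot be told apart. Among lncRNAs with an overlap on the other strand 6 were higher and 5 lower of 163. With an overlap on the same strand, 3 were higher and 2 lower of 52. Without any overlap, 14 were higher and 5 lower of 99.

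Differences of lncRNAs went with those of the genes they touch. Over 264 pairs of a lncRNA and a protein-coding gene that overlapped it or started within 5 kb, Pearson's r of the log2 fold changes was 0.45 and Spearman's rho 0.46. Over 44 pairs overlapping on the same strand r was 0.64 and rho 0.51, and over 175 pairs overlapping on the other strand r was 0.48 and rho 0.51. Over 42 pairs with starts within 5 kb on opposite strands r was 0.30 and rho 0.41. These are correlations across genes, which are not independent replicates, and pairs share libraries and may share reads.

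**Figure D5:**
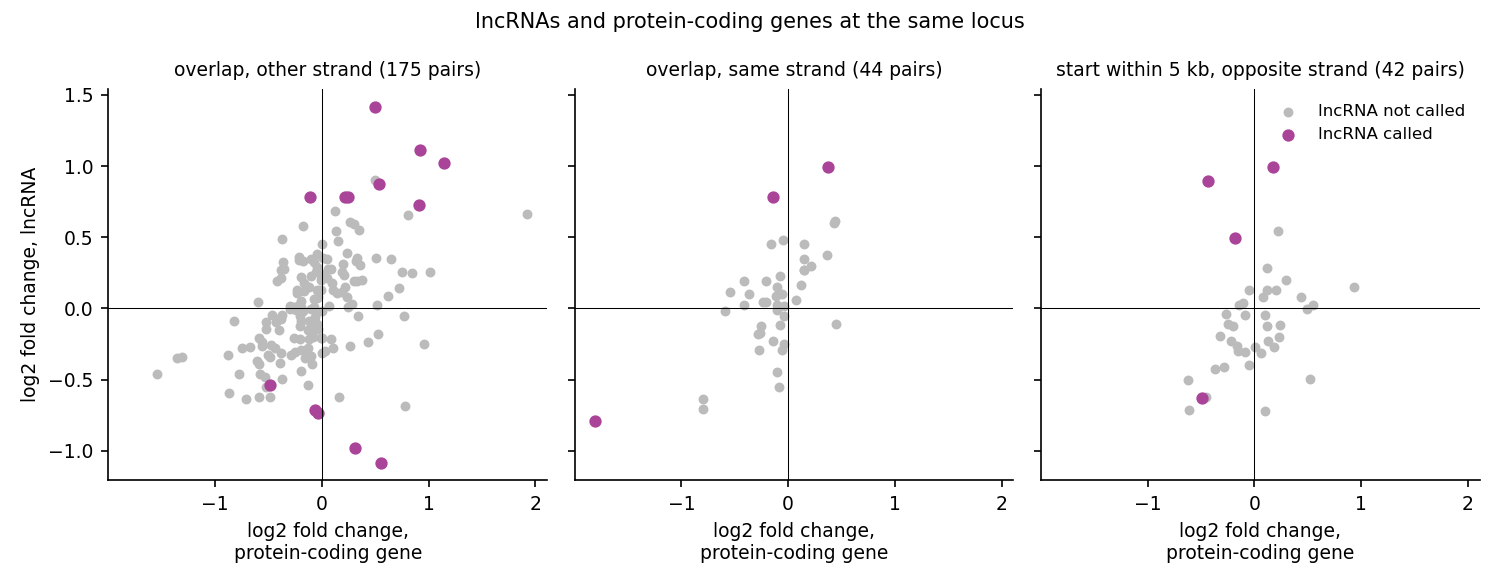
Log2 fold change of each lncRNA (vertical axis) against that of a protein-coding gene at its locus (horizontal axis), with 1 panel for each arrangement and called lncRNAs in purple. Spearman's rho is 0.51 for the 175 pairs overlapping on the other strand, 0.51 for the 44 on the same strand and 0.41 for the 42 with starts within 5 kb on opposite strands.

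Of the 33 called lncRNAs 17 formed 20 such pairs, and in 5 of the 20 the protein-coding gene was called too, each time in the same direction. Over all 264 pairs the protein-coding gene was called in 37, and 16.1% of protein-coding genes at 5 CPM or more were called. Gm36043 overlaps Cd274, the gene of the checkpoint ligand PD-L1, and the log2 fold changes were 1.11 and 0.92. Gm17034 overlaps Hk2, a hexokinase of glycolysis, with 1.02 and 1.15. Gm15283 overlaps Hif1a, the oxygen-regulated transcription factor, with 0.87 and 0.53. 9330175E14Rik overlaps Nlrc5, the activator of MHC class I genes, with 0.72 and 0.91. 9230112E08Rik lies on the strand of Col20a1, a collagen gene, and both were lower, at -0.79 and -1.81.

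Each of these 5 lncRNA calls was lost when some single library was left out. Gm36043 was lost without oxPAPC replicate 4 (adjusted p = 0.0554), and when the replicate number entered the fit as a block (0.0690). Gm17034 was lost without control replicates 2 (0.102), 3 (0.0639) or 4 (0.0625) and oxPAPC replicates 1 (0.116) or 2 (0.101), and with limma-voom (0.0769). Gm15283 was lost without any 1 of the control replicates (0.0507 to 0.0867) and without oxPAPC replicates 1 (0.114) or 2 (0.115), and with a filter at 5 CPM (0.0628). 9330175E14Rik was lost without control replicates 1 (0.0561), 2 (0.0533) or 4 (0.0577) or oxPAPC replicate 2 (0.0581), and 9230112E08Rik without oxPAPC replicates 1 (0.0591) or 4 (0.0601) and with scaling by library totals (0.112).

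Other pairs did not move together past the test. Zfas1 fell, while Znfx1 on the other strand of its locus was 34.0 ± 5.76 CPM in control against 49.98 ± 11.7 CPM in oxPAPC libraries and did not pass (SD, n = 4 each; edgeR adjusted p = 0.0531). Gm50394, on the other strand of the phosphatase gene Dusp5, fell by 0.98 on the log2 scale, with 11.2, 13.1, 6.67 and 11.0 CPM in control against 6.34, 7.47, 4.10 and 3.45 CPM in oxPAPC libraries. Dusp5 itself was at 0.32 and did not pass. Control replicate 3 lay within the oxPAPC range of Gm50394, and its call was lost without control replicates 1 (0.0663), 2 (0.0801) or 4 (0.0558) and oxPAPC replicates 3 (0.0586) or 4 (0.0730).

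Gm44851 is antisense to Furin, a protease that activates TGF-beta. It had 4.66, 3.24, 4.20 and 3.04 CPM in control against 9.33, 10.4, 7.68 and 13.0 CPM in oxPAPC libraries, and the groups did not overlap. Its log2 fold change was 1.42 ± 0.22 (SE, adjusted p = 0.000928 by edgeR), against 0.50 ± 0.22 for Furin, which did not pass (edgeR adjusted p = 0.154). Gm44851 entered the set through the oxPAPC libraries, since its control mean was under 5 CPM. AC113595.1, on the strand of the antiviral gene Apobec3, was higher by 0.99 ± 0.20 (SE, adjusted p = 0.00508 by edgeR), while Apobec3 was at 0.37 and did not pass.

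Further lncRNAs without an overlapping gene were called. Gm47015 was higher by 1.00 ± 0.21 on the log2 scale, with 5.75 to 9.91 CPM in control against 11.9 to 20.6 CPM in oxPAPC libraries. Gm20186, beside Lsm8, was higher by 0.99 ± 0.19, but 77.2% of its 50-base windows also occur in Gm26809, so its counts are uncertain. Gm20559, with Samd9l as its nearest protein-coding gene, was higher by 0.96. Lower calls of this kind were Gm16576, beside Sun2, at -0.63, and Gm28875 at -0.56. Gm20559 was lost without control replicate 2 (adjusted p = 0.0535) or oxPAPC replicates 2 (0.0565) or 4 (0.0555). Gm16576 was lost without any library but the replicates numbered 3 (0.0710 to 0.105). Gm28875 was lost without control replicates 2 (0.114) or 4 (0.119) and oxPAPC replicates 1 (0.0694), 2 (0.0896) or 4 (0.130), with RLE scaling (0.0526) and with no filter (0.0505). Scaling by library totals ended the calls of Gm16576 (0.211) and Gm28875 (0.217).

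The remaining lower calls lie on protein-coding loci. R74862, on the other strand of the tetraspanin gene Cd81, was lower by 0.74, with 6.32 to 9.19 CPM in control against 4.03 to 5.22 CPM in oxPAPC libraries. 2010016I18Rik, on the other strand of Dennd2d, had a log2 fold change of -0.71, and Gm9821, on the other strand of the diacylglycerol kinase gene Dgkz, one of -0.54. D030028A08Rik, which overlaps Cdk5rap3 and Sp2 among others, was higher by 0.79. In none of these pairs did the protein-coding gene pass the test. R74862 was lost without control replicates 2 (adjusted p = 0.0537) or 3 (0.0638) and oxPAPC replicates 1 (0.0698) or 4 (0.0712). 2010016I18Rik was lost without control replicates 1 (0.0642) or 3 (0.0621) and oxPAPC replicates 1 (0.0862) or 3 (0.0577). Gm9821 was lost without control replicate 2 (0.0587) or oxPAPC replicates 1 (0.0519) or 4 (0.0628), and D030028A08Rik without oxPAPC replicate 1 (0.0596). Scaling by library totals ended the calls of R74862 (0.138), 2010016I18Rik (0.142) and Gm9821 (0.168).

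Levels within the set were uneven. The median over 8 libraries was 8.70 CPM, 175 of the 306 lay under 10 CPM and 8 reached 100 CPM, and the 6 highest held 43.6% of the summed CPM. Per kilobase of annotated exon, 2410006H16Rik came first with 930 CPM per kb, ahead of Gm10076 with 532, Bc1 with 503, Malat1 with 286 and Mir142hg with 225 CPM per kb. Gm10076 shares 69.9% of its 50-base windows with the ribosomal protein gene Rpl41, and Bc1 is a short transcript of 168 bases. Zfas1 had 156 and Neat1 12.4 CPM per kb.

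The lncRNAs also varied more between replicates than protein-coding genes. The median coefficient of variation was 21.5% in control and 25.9% in oxPAPC libraries, against 15.2% and 15.4% for protein-coding genes at 5 CPM or more. No test was made of this difference, and lncRNAs had lower counts. Groups did not overlap for 32 of the 306 lncRNAs, or 10.5%, against 19.4% of all tested genes. Across the 306, the log2 fold change had Spearman's rho of 0.01 with exon length, 0.05 with GC content and -0.03 with mean CPM, as a description across genes.

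At the edge of the rule, Pitpnm2os2 (5.02 CPM), Lrp8os2 (5.03) and Etohd2 (5.03) were just inside, and Gm20456 (4.99), Bach2os (4.98) and 2310015A10Rik (4.97) just outside. In 43 of the 306 a group mean was under 5 CPM, 30 times in control and 13 times in oxPAPC libraries. Of the 263 with both group means at 5 CPM or more, 15 were higher and 8 lower. The other higher calls, Morrbid, Gm44851, Mir155hg, Gm17034, Gm20559, D030028A08Rik and 2700038G22Rik, had control means under 5 CPM and reached the rule through the oxPAPC libraries, and the other lower ones, 9230112E08Rik, R74862 and Gm16576, had oxPAPC means under 5 CPM and reached it through the control libraries.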

How the data were processed

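The deposited table holds raw counts per gene for 8 libraries, and, per the submitters' processing notes, the build was GRCm38.p6 and the tools were STAR 2.7.8a, featureCounts 2.0.2 and DESeq2 1.30.1. The table also holds values of the authors' own DESeq2 comparison: a normalized mean count (a signal), log2 fold changes with their errors, a test score and p-values. The authors' deposited table calls 28 of the 306 lncRNAs higher and 16 lower, and all 33 calls given here were among them.

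Counts were tested with edgeR 4.0.16 (quasi-likelihood, TMM scaling, filterByExpr, Benjamini-Hochberg adjustment, threshold 0.05) under R 4.3.3, on 16434 genes with control and oxPAPC libraries as groups of 4 and no covariate. Library totals of 14017583 to 21619731 counts set the precision. DESeq2 1.42.0, limma-voom (limma 3.58.1), other scalings and filters, a replicate block, a GC and length offset (loess span 0.5) and leaving out each library were alternatives. On simulated data of these libraries and 16434 genes, edgeR found 5 of 67 genes with a 1.5-fold change, 41 of 67 with a 2-fold one and 59 of 66 with a 4-fold one. Of its 116 calls 11 were false. The simulation changed 200 genes, while 2182 genes were called in the data, so recovery in the data may differ.

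Overlaps, snoRNAs and microRNAs inside a gene came from GENCODE M21 (GRCm38), whose coordinates were identical for 295 of the 306. Start sites were listed in RefSeq for 146 of them.

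The lncRNAs and all gene lists were chosen with earlier results of these data known. The text names all Snhg genes, Gas5 and lncRNAs of the nuclear, microRNA and immune lists, the 12 highest and 12 lowest other calls by log2 fold change, the genes they overlap or adjoin, the 3 highest by CPM and the 3 on each side of 5 CPM, and of the protein lists the 4 with the smallest p. Of the other-cell lists, 0 of 1 tested erythroid and platelet gene and 1 of 3 plasma cell genes were called.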

Additional observations from a re-analysis of the deposited data

Results flagged for a closer look

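Oip5os1, the conserved lncRNA also known as Cyrano, had 71.3 CPM in control replicate 3, against 50.8 to 54.2 CPM in the other control libraries, so that 1 library stood far from its group. Of 94 groups of 4 values examined this was the only one, and chance gives about 1 in 20, or about 5. In the oxPAPC libraries the gene had 59.6 to 76.2 CPM.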

How the results depend on the processing

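The lncRNA calls moved with the scaling, the test and single libraries. Scaling by library totals alone gave 458 lower genes in all, 5 lower lncRNAs and 5 lower lncRNAs without Snhg or Gas5 names, moved the median of all genes to 0.12 (log2) and made 71.6% of calls higher, against 50.9%. With the replicate block 708 genes were lower, and 12 lncRNAs and 9 of those without such names were higher. The block kept 19 of the 33 lncRNA calls. Among those it ended were Lncpint (edgeR adjusted p = 0.0939), Mir155hg (0.0707), Gm36043 (0.0690), Gm17034 (0.0882), 9330175E14Rik (0.0572), Gm20559 (0.0753) and 2700038G22Rik (0.0896). Lower calls it ended were R74862 (0.0604), 2010016I18Rik (0.0917), Gm16576 (0.0927) and Gm28875 (0.108). The replicate numbers showed no clear pairing: same-numbered correlations were 0.32, -0.05, -0.37 and -0.04, and the best match had the same number for 2 of 8 libraries. These few values cannot exclude that same-numbered libraries share a mouse or culture. The GC and length offset gave 1728 higher genes, and 26 lower lncRNAs, of which 3 were Snhg or Gas5 and 23 were not. DESeq2 gave 17 lower lncRNAs, 1 of them Snhg1, and no filter also gave 1 lower Snhg gene. Quality weights gave 30 higher lncRNAs outside the Snhg and Gas5 names. LncRNAs at 10 CPM or more held 12 higher and 7 lower calls (9 and 7 outside those names), and those at 5 CPM in each group 12 higher ones outside those names.

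With 1 library left out, calls ranged from 710 to 1057 higher and 680 to 1144 lower genes, 11 to 32 higher and 3 to 14 lower lncRNAs, 2 to 4 higher and 0 to 1 lower Snhg or Gas5 genes, and 9 to 28 higher and 3 to 13 lower others. The log2 fold change of Mirt1 changed sign with library totals (0.0081). That of Pvt1 did so with quality weights (0.00073) and ranged from -0.24 to 0.042 with a library left out. The cause of these changes was not tested. At these depths and 4 libraries a group, changes near 1.5-fold were mostly missed in the simulation. It changed only 200 genes, fewer than were called in the data, so the share missed in the data is not known.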
